A study of Mus musculus with 5 samples.

Results

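Acute-phase genes and genes of IL-6/STAT3 signaling were followed in 5 RNA-seq libraries of sorted mouse bone marrow (BM) cells. They were 8 of the 23234 genes listed in each library, namely the acute-phase genes Saa3 and Lrg1, the receptor genes Il6ra and Il6st, the transcription factor gene Stat3, and Socs3, Pim1 and Bcl3. The genes were taken by symbol, and the list was drawn up with their levels and their changes after LPS in these same libraries in view. The values below are therefore a description, and none of the changes was tested. All libraries came from C57BL/6 mice of 7 weeks with the genotype +/Ym1Venus, a reporter allele whose fluorescent protein Venus is made in cells with an active Ym1 (Chi3l3) gene. Among Ly6C+CD115+ monocytes, Venus+ cells (Ym1+ monocytes) and Venus- cells (Ym1- monocytes) were collected separately 48 h after intravenous injection of 100 µg of LPS per mouse, and naive monocytes were Venus- cells of untreated mice. Ly6G+ neutrophils were sorted after LPS and from untreated mice. There was 1 library for each of the 5 conditions, and how many mice gave each is not stated in the sources used here.

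IL-6 binds its receptor, encoded by Il6ra, and the complex engages the shared signaling chain gp130, encoded by Il6st. Janus kinases bound to gp130 then phosphorylate STAT3, which enters the nucleus and switches on genes, among them Socs3, whose product blocks gp130 signaling in turn. In the liver this pathway drives the acute-phase response, in which proteins such as serum amyloid A and haptoglobin pass into the blood. Granulocyte colony-stimulating factor and IL-10 use STAT3 as well, so that myeloid cells can reach the same target genes through other receptors.

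The values are FPKM, fragments per kilobase of transcript scaled to library size, and are already scaled for gene length. From the steps between low FPKM values, the depth of the other 4 libraries was 44.7 to 97.2% of that of the Ym1+ library, the deepest. Intervals are at 95%, rest on these rough fragment numbers and cover counting error only, so they leave out the spread between mice, which 1 library per condition cannot give. Changes are given as log2(FPKM + 1) of one library minus that of another, a scale that shrinks the change of weakly expressed genes. A gene whose FPKM reached 1 in one of the pair was compared, and it was counted as higher or lower at 2-fold on that scale. Chi3l3 was at 1759 in Ym1+, 386 in Ym1- and 430.0 in naive monocytes, and at 1712 and 1484 in neutrophils after LPS and naive neutrophils. The Venus- libraries thus held Chi3l3 transcript too, and Ym1- is the name of the sort gate. None of 12 neutrophil markers and none of 11 monocyte markers was listed at 0 in any library. The neutrophil markers summed to 286952 after LPS and 295791 in naive neutrophils, against 14167 in Ym1+, 1965 in Ym1- and 1381 in naive monocytes. Of these sums S100a8 and S100a9 took 117292 and 97712 in neutrophils after LPS, and 104312 and 108921 in naive neutrophils. They took 7993 and 5205 in Ym1+, 1107 and 648 in Ym1-, and 595 and 331 in naive monocytes. The monocyte markers summed to 5098 to 6179 in the monocytes and 1902 to 2302 in the neutrophils. Most of the neutrophil sums came from Ly6c2, at 1613 after LPS and 1377 in naive cells, and Ccl6, at 240 and 881. Ccr2, by comparison, was at 1.13 and 0.99 in neutrophils and at 434 to 499 in monocytes.

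After LPS, Saa3, Lrg1, Socs3 and Pim1 were higher in Ym1+ monocytes, in Ym1- monocytes and in neutrophils. The receptor gene Il6ra was lower in Ym1- monocytes, and Stat3 did not reach 2-fold anywhere after LPS. In Ym1- against naive monocytes 4 of the 8 genes were higher and 1 was lower, beside 2.86% higher and 4.72% lower among 10714 genes. In Ym1+ against naive monocytes 4 were higher and 0 lower, beside 2.59% higher and 4.51% lower among 10698 genes. In neutrophils 6 were higher and 0 lower, beside 8.96% higher and 5.35% lower among 9583 genes. The median change of the 8 genes was 1.35 in Ym1- monocytes, 1.36 in Ym1+ monocytes and 1.43 in neutrophils, beside medians over all genes of -0.00, -0.06 and 0.07. Because the genes were chosen with these comparisons in view, nothing is read from the counts. Both monocyte comparisons use the same naive library.

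**Figure D1:**
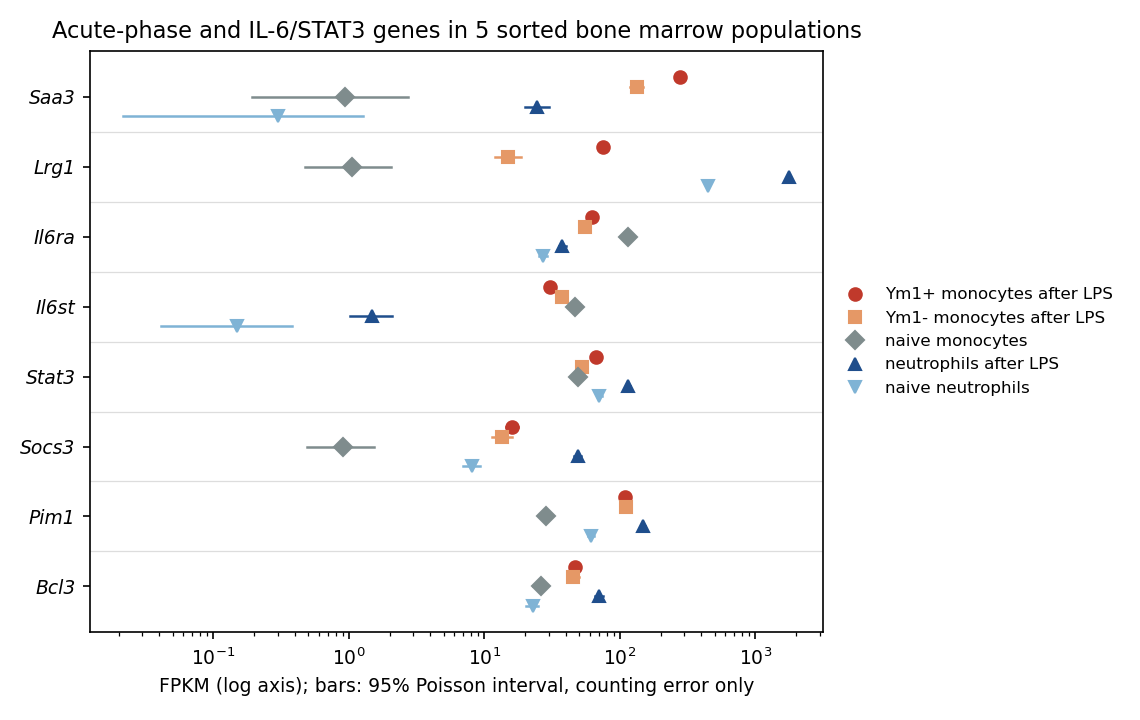
FPKM (log axis) of the 8 genes in the 5 libraries, with 95% Poisson intervals that cover counting error only. Lrg1 spans 1.06 to 1781 and Saa3 0.30 to 278, whereas Stat3 stays between 48.7 and 116.

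Saa3 encodes a serum amyloid A protein that is made by macrophages and other cells outside the liver during inflammation. Saa3 was at an FPKM of 278 in Ym1+ monocytes, 133 in Ym1- monocytes, 0.93 in naive monocytes, 24.5 in neutrophils after LPS and 0.30 in naive neutrophils. It was thus near the floor in both naive populations, at about 3 and 2 fragments, and highest in the monocytes of LPS-treated mice. The level in Ym1- monocytes was 143-fold (48.8 to 701) that in naive monocytes. In Ym1+ monocytes it was 299-fold (102 to 1454), and in neutrophils 81.8-fold (16.5 to 513) their naive level. The width of these intervals comes from the few fragments in the naive libraries, and the naive monocytes and naive neutrophils could not be told apart at this depth (ratio 0.323, 0.0359 to 3.76). Between the monocytes of LPS-treated mice, Ym1+ cells had 2.08-fold (1.84 to 2.36) the Saa3 level of Ym1- cells.

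Markers of other cell types were read beside Saa3. Saa3 in neutrophils after LPS was 18.4% of the level in Ym1- monocytes, so that it was not a neutrophil-enriched transcript in these libraries. Of 10 tissue macrophage markers, 3 of the 7 that could be compared were higher in Ym1- than in naive monocytes and 6 of 10 in Ym1+ than in naive monocytes, with 0 lower in both. Between Ym1+ and Ym1- monocytes 6 of 9 were higher in Ym1+ cells and 0 lower. Over all genes 2.86, 2.59 and 1.38% were higher in these 3 comparisons. The 4 markers under 2-fold in Ym1- against naive monocytes were Axl at 0.88 and Emr1, Mrc1 and Cd163 at -0.42, -0.61 and -0.76. Cd163 was at -0.97 in Ym1+ against naive monocytes. The median change of the compared markers was 0.88 in Ym1- and 1.19 in Ym1+ against naive monocytes. It was 1.24 between Ym1+ and Ym1- monocytes, and -0.91 in neutrophils after LPS against naive neutrophils. The complement genes C1qa, C1qb and C1qc, the 3 called in Ym1- cells, were at 17.2, 31.7 and 19.0 in Ym1+, 4.62, 14.7 and 5.78 in Ym1-, and 0.52, 0.18 and 0.36 in naive cells. In neutrophils, where Saa3 was higher after LPS, 4 of 10 were lower, these 3 genes among them, and 0 higher. The 10 markers summed to 130 in Ym1+, 72.2 in Ym1- and 56.7 in naive monocytes, of which Emr1 took 44.8, 33.7 and 45.4. In neutrophils they summed to 87.8 after LPS and 146 in naive cells, of which Slc40a1, an iron exporter gene, took 68.5 and 110.2. Of the 10 only Cd5l, in Ym1- monocytes, was at 0. The part of such cells in the Saa3 levels was not tested, and in bulk libraries fewer cells of a type and less RNA per cell cannot be told apart. The liver genes Alb and Apoa1 were listed at 0 in all 5 libraries. Stem and progenitor markers were lower in Ym1- and in Ym1+ than in naive monocytes, for 3 of 3 compared. Dendritic cell markers were too, for 2 of 2, with Flt3 in both lists. Over all genes 4.72 and 4.51% were lower. Of 4 eosinophil and basophil markers 2 were higher in Ym1- than in naive monocytes and 0 lower, beside 2.86% over all genes. Prg2 among them was at 28.0 in Ym1- monocytes. The part of such cells in the changes after LPS was not tested.

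Lrg1 encodes leucine-rich alpha-2-glycoprotein 1, a secreted protein that is raised in the blood in inflammation, is stored in neutrophil granules and modifies TGF-beta signaling. Lrg1 was at an FPKM of 1781 in neutrophils after LPS, 447 in naive neutrophils, 75.1 in Ym1+ monocytes, 15.1 in Ym1- monocytes and 1.06 in naive monocytes. This order is different from that of Saa3, with both neutrophil libraries above all 3 monocyte libraries. Lrg1 in neutrophils after LPS was 3.98-fold (3.86 to 4.10) the naive level. It was 14.2-fold (6.92 to 31.0) above naive monocytes in Ym1- cells and 70.9-fold (35.9 to 150.2) in Ym1+ cells. The ratio of naive neutrophils to naive monocytes was 423 (215 to 893).

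Between Ym1+ and Ym1- monocytes Saa3 and Lrg1 alone of the 8 genes reached 2-fold, and both were higher in Ym1+ cells, beside 1.38% higher and 1.18% lower among 10489 genes. Lrg1 was 4.99-fold (4.005 to 6.27) higher in the Ym1+ cells. In the same comparison 10 of 12 neutrophil markers were higher in Ym1+ monocytes and 0 lower, with a median of 2.55 beside -0.06 over all genes. Expressed as a share of the level in neutrophils after LPS, the gap between Ym1+ and Ym1- cells was 3.37% for Lrg1. For the neutrophil markers the same share ran from 0.0606% for Retnlg, which encodes a resistin-like protein, to 5.87% for S100a8, a calprotectin subunit, and for the granule protein genes Ngp, Ltf and Camp it was 0.943, 0.850 and 0.888%. Of the markers only S100a8, Mmp8, Csf3r and S100a9 had a larger gap than Lrg1, at 5.87, 5.87, 5.63 and 4.66%, and Stfa2l1 came next below it at 3.17%. The range of the markers is wide, and the part of neutrophil RNA in the Lrg1 gap was not tested. In Ym1- against naive monocytes 0 neutrophil markers were higher and 5 of 12 were lower at 2-fold, with a median of -0.58. S100a8 and S100a9 rose by 0.90 and 0.97, just under 2-fold, and Lrg1 was 2.96 higher on the log2 scale. The part of neutrophil RNA in the Lrg1 level of Ym1- cells was not tested either.

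**Figure D2:**
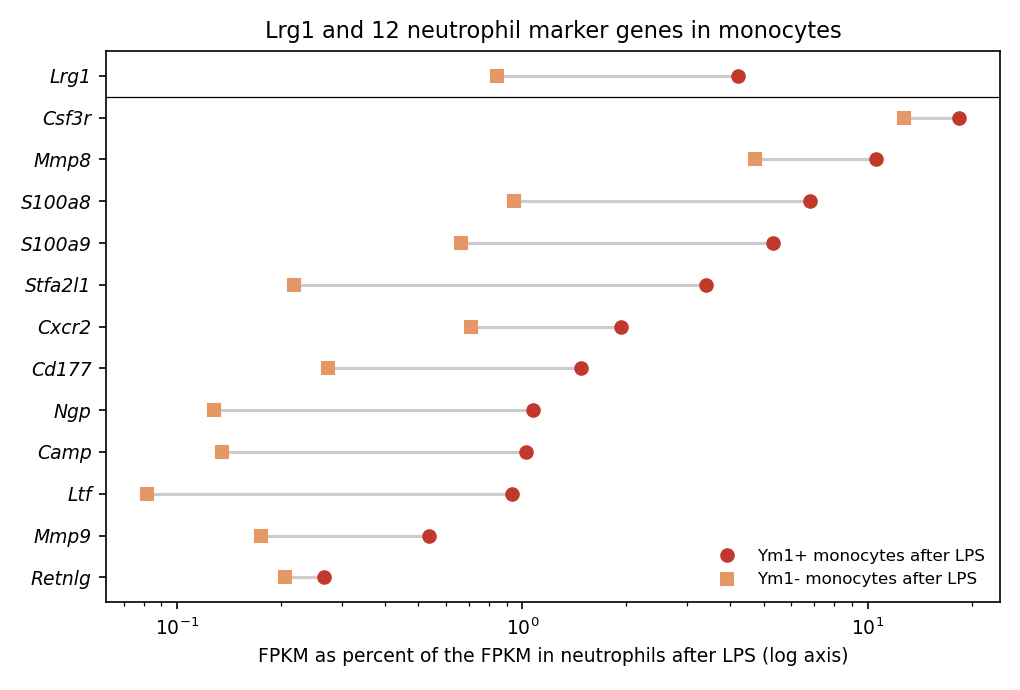
FPKM of Lrg1 and 12 neutrophil marker genes in Ym1+ and Ym1- monocytes after LPS, as percent of the FPKM in neutrophils after LPS (log axis). Lrg1 moves from 0.846% in Ym1- to 4.22% in Ym1+ cells, and all 12 markers lie further right in Ym1+ cells.

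Il6ra and Il6st, which encode the ligand-binding and the signaling chain of the IL-6 receptor, were highest in naive monocytes. Il6ra was at an FPKM of 114 in naive monocytes, 62.9 in Ym1+, 55.8 in Ym1-, 37.8 in neutrophils after LPS and 27.1 in naive neutrophils. After LPS it was thus lower in both monocyte libraries, and higher in neutrophils by less than 2-fold. The ratio to naive monocytes was 0.488 (0.449 to 0.530) in Ym1- cells, which lies at the 2-fold limit with a log2 change of -1.02, and 0.549 (0.516 to 0.584) in Ym1+ cells, which misses it at -0.85. In neutrophils the ratio of LPS to naive was 1.39 (1.27 to 1.53).

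Il6st was at an FPKM of 47.1 in naive monocytes, 37.3 in Ym1-, 30.3 in Ym1+, 1.48 in neutrophils after LPS and 0.15 in naive neutrophils. The gp130 transcript was therefore a monocyte transcript among these cells, and in neutrophils it rested on about 33 fragments after LPS and about 4 in naive cells. Relative to naive monocytes it did not reach 2-fold, with ratios of 0.792 (0.705 to 0.889) in Ym1- and 0.643 (0.583 to 0.709) in Ym1+ cells. In neutrophils after LPS Il6st was 9.92-fold (3.53 to 38.5) above the naive level. Its level there was 3.98% of that in Ym1- monocytes, and the monocyte markers Ccr2, Irf8, Klf4 and Ms4a6c were at 0.261, 0.237, 0.391 and 0.271% on the same measure. Of the other 7 monocyte markers, Cx3cr1, F13a1 and Fcgr1 lay below Il6st, at 0.381, 1.66 and 3.38%. Csf1r, Ly6c2, Cd14 and Ccl6 lay above it, at 7.08, 50.8, 181 and 196%. In naive neutrophils Il6st was at 0.318% of its level in naive monocytes, and the 11 markers ran from 0.0833% for Klf4 to 208% for Ccl6, 4 of them below Il6st and 7 above. The part of monocyte RNA in the Il6st level of neutrophils was not tested.

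Stat3, the transcription factor itself, was the most even of the 8 genes. Stat3 was at an FPKM of 116 in neutrophils after LPS, 70.7 in naive neutrophils, 66.6 in Ym1+, 52.8 in Ym1- and 48.7 in naive monocytes. The order placed each LPS library above its naive counterpart, but the Ym1- and naive monocytes did not differ beyond counting error (ratio 1.08, 0.995 to 1.18). Ym1+ monocytes were at 1.37-fold (1.28 to 1.46) the naive level and neutrophils after LPS at 1.64-fold (1.56 to 1.72).

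**Figure D3:**
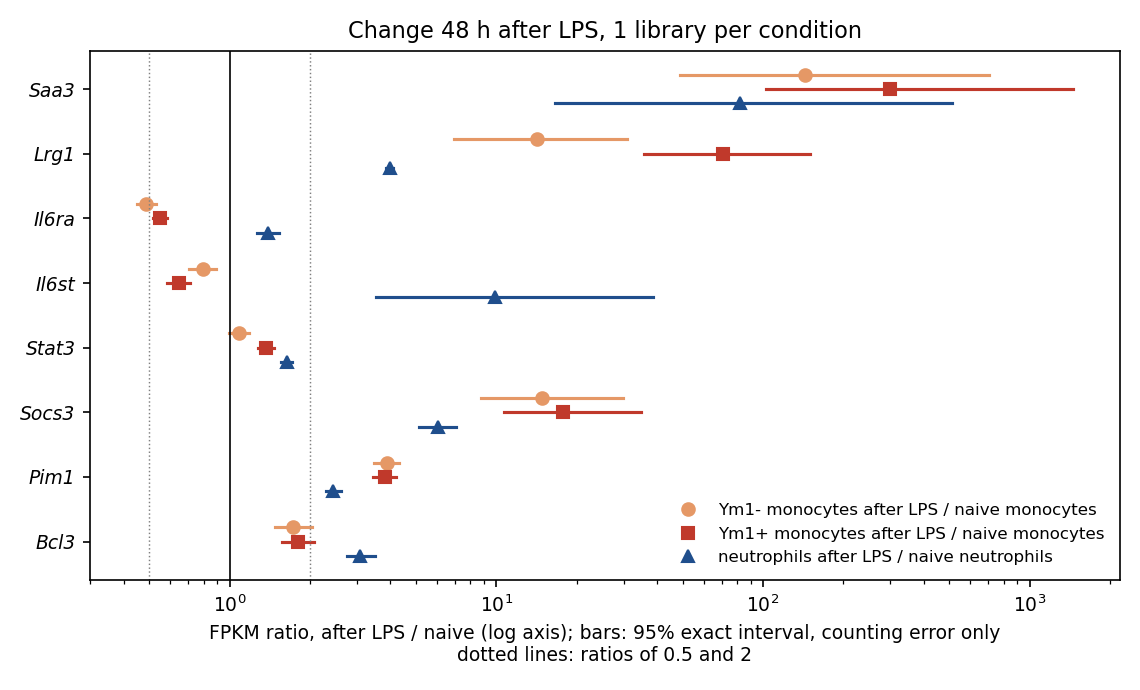
Ratio of the FPKM after LPS to that of the naive cells (log axis) for the 8 genes in Ym1- monocytes, Ym1+ monocytes and neutrophils, with 95% exact intervals that cover counting error only. Saa3, Lrg1, Socs3 and Pim1 lie right of a ratio of 2 in all 3 comparisons, and Il6ra lies left of 1 in monocytes and right of 1 in neutrophils.

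Socs3, the feedback inhibitor that binds gp130 and the Janus kinases, was low in naive monocytes. Socs3 was at an FPKM of 48.9 in neutrophils after LPS, 16.1 in Ym1+, 13.5 in Ym1-, 8.10 in naive neutrophils and 0.91 in naive monocytes. All 3 LPS libraries were above both naive libraries. The ratio to the naive cells was 14.9 (8.76 to 29.7) in Ym1- monocytes, 17.8 (10.7 to 35.0) in Ym1+ monocytes and 6.03 (5.14 to 7.09) in neutrophils. The Ym1+ and Ym1- levels did not differ beyond counting error (ratio 1.19, 0.982 to 1.46).

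The proximal promoters of Saa3 and Socs3 are shown because both genes were low in naive monocytes and higher in all 3 LPS libraries than in the naive cells, and because they hold different elements. The sequences are the 250 bases before the transcript start in RefSeq for GRCm38.p6, which is not the build of the expression files, and all 8 genes were matched by symbol. The Saa3 window lies at chr7:46715677-46715926 and that of Socs3 at chr11:117969367-117969616, both on the minus strand and written 5′ to 3′. Capitals mark matches to the STAT motif TTCNNNGAA, the C/EBP motif TTGCNNAA and the TATA motif TATANA, all searched on both strands.
Saa3: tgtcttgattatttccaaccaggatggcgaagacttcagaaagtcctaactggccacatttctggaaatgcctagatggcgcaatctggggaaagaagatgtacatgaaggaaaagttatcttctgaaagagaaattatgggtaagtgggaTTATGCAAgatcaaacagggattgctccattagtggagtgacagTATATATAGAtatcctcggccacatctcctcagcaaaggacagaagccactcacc
Socs3: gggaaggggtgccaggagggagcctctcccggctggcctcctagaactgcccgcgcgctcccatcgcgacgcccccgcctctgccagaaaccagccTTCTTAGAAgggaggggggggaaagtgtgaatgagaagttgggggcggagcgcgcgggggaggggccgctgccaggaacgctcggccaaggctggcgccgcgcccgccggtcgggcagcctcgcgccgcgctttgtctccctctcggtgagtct
In Saa3 the C/EBP match stands on the reverse strand, 99 to 92 bases before the start, and overlapping TATA matches run from 55 to 46 bases before it. In Socs3 the STAT match is TTCTTAGAA, 154 to 146 bases before the start. Of the 8 genes, 1 held the STAT motif, 1 the C/EBP motif and 1 the TATA motif, where 7.02, 9.56 and 22.6% of 32851 promoter windows did. Lrg1, at 1.06 in naive monocytes and also higher in all 3 comparisons after LPS, held 0 matches to each of these motifs. The looser NF-kB motif GGGNNNNNCC was found in 5 of the 8 genes and in 45.8% of all windows, and is not capitalized. A match is a run of letters and does not show that a factor binds.

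Pim1 encodes a serine/threonine kinase that promotes survival and is a known target of cytokine signaling. Pim1 was at an FPKM of 149 in neutrophils after LPS, 111 in Ym1-, 109 in Ym1+, 61.0 in naive neutrophils and 28.6 in naive monocytes. It was 3.88-fold (3.48 to 4.33) above naive monocytes in Ym1- and 3.81-fold (3.44 to 4.21) in Ym1+ cells, and 2.45-fold (2.30 to 2.61) above naive cells in neutrophils. Pim1 did not differ between Ym1+ and Ym1- monocytes beyond counting error (ratio 0.981, 0.917 to 1.05).

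Bcl3 encodes an IκB family protein that works in the nucleus with the NF-κB subunits p50 and p52. Bcl3 was at an FPKM of 70.2 in neutrophils after LPS, 46.8 in Ym1+, 45.1 in Ym1-, 26.0 in naive monocytes and 22.7 in naive neutrophils. The 2-fold limit was passed in neutrophils only, at 3.09-fold (2.75 to 3.50), while the ratios of 1.73 (1.47 to 2.03) in Ym1- and 1.80 (1.57 to 2.07) in Ym1+ monocytes stayed under it. Neither Ym1+ against Ym1- cells (ratio 1.04, 0.915 to 1.18) nor naive neutrophils against naive monocytes (0.872, 0.744 to 1.02) differed beyond counting error.

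In all 3 comparisons after LPS, 58 of the 9053 genes that could be compared in each, or 0.641%, passed 2-fold upwards. Saa3, Lrg1, Socs3 and Pim1 were among them. The lists of other genes of these pathways held 145 genes, of which 85 could be compared in each, and Cfb and Jak3 were the 2 that were higher in all 3. Jak3, a Janus kinase of the receptors that share the common gamma chain, was at an FPKM of 19.9 in Ym1-, 18.6 in Ym1+ and 6.42 in naive monocytes, and at 28.8 against 4.68 in neutrophils. Cfb, complement factor B, was at 33.9 in Ym1+, 14.9 in Ym1- and 4.01 in naive monocytes, and at 7.94 against 0.12 in neutrophils. Cfb was named after its values had been seen.

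**Figure D4:**
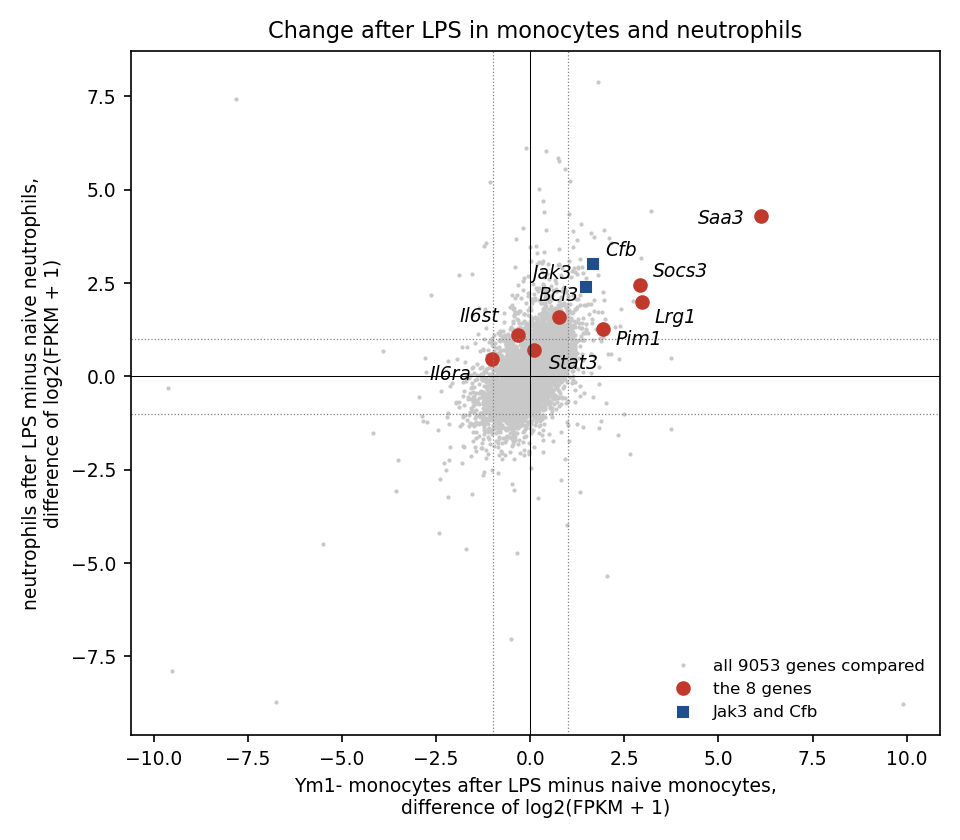
Difference of log2(FPKM + 1) after LPS in Ym1- monocytes (x axis) and in neutrophils (y axis) for 9053 genes, with the 8 genes as circles, Jak3 and Cfb as squares and dotted lines at 2-fold. Saa3 lies at 6.12 and 4.30, Socs3 at 2.93 and 2.45, and Il6ra at -1.02 and 0.46.

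The naive cells also differed in these genes before LPS. In naive neutrophils against naive monocytes, Lrg1, Socs3 and Pim1 were higher and Il6ra and Il6st lower, which is 3 and 2 of the 7 genes that could be compared. Saa3 could not be compared, as it was below 1 in both. Over all genes 10.8% of 10944 were higher and 42.7% lower, with a median of -0.79 beside 0.53 for the 7 genes. S100a8 and S100a9 took 30.0% of the FPKM of naive neutrophils and 0.172% of that of naive monocytes. With median-of-ratios scaling 2136 genes lay above and 2921 below 2-fold, against 1184 and 4678 as deposited, and the median was -0.20. The higher calls thus made up 42.2% of the calls with scaling and 20.2% without. Lrg1 was higher by 7.77 on the log2 scale as deposited and by 8.32 with scaling, and Socs3 by 2.26 and 2.76. Il6ra was at -2.04 and -1.35, and Il6st at -5.39 and -5.04, so that both receptor chains were lower in neutrophils under either scaling. Stat3 was at 0.53 as deposited and passed 2-fold with scaling at 1.22, and Bcl3 turned from -0.19 to 0.49. Pim1 was at 1.07 and 1.75, but at 0.68 on the TPM scale.

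Among the other acute-phase genes, 13 of 34 listed genes were at 0 in every library, among them the fibrinogen genes Fga, Fgb and Fgg and Saa2. Of the 11 that could be compared, 6 were higher and 0 lower in Ym1- monocytes (median 1.15), and 6 were higher and 0 lower in Ym1+ monocytes (median 1.03). Over all genes 2.86 and 2.59% were higher in the Ym1- and Ym1+ monocytes. In neutrophils 4 of 11 rose and 1 fell (median 0.63), beside 8.96 and 5.35% over all genes. Between Ym1+ and Ym1- monocytes 3 of 12 were higher in Ym1+ cells, namely Lcn2, Cfb and Orm1, and 0 lower, beside 1.38 and 1.18% over all genes. Lcn2, the iron-siderophore trap lipocalin 2, was at an FPKM of 22622 in neutrophils after LPS, 16224 in naive neutrophils, 1870 in Ym1+, 420 in Ym1- and 81.1 in naive monocytes, the same order as Lrg1. Steap4, a metalloreductase, was at 124 in neutrophils after LPS and 4.48 in naive neutrophils, and below 1 in all 3 monocyte libraries. Orm1, an alpha-1-acid glycoprotein, was at 78.9 and 107 in neutrophils and at 1.95 or below in monocytes. The part of neutrophil RNA in the monocyte levels of Lcn2 and Orm1 was not tested. Il1rn, the IL-1 receptor antagonist, was the 1 gene that was lower in neutrophils after LPS, at 36.0 against 157. The haptoglobin gene Hp was named after its values had been seen. It was at 2377 in neutrophils after LPS, 1533 in naive neutrophils, 1324 in Ym1+, 951 in Ym1- and 528 in naive monocytes.

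The ligand genes of the IL-6 family were low in monocytes. Il6, named after its values had been seen, was listed at 0 in all 5 libraries. Osm, which encodes oncostatin M, was at an FPKM of 26.3 in neutrophils after LPS and 21.0 in naive neutrophils, and at 1.88 to 2.69 in monocytes. Of the ligand genes 1 of 3 was lower in Ym1- monocytes and 0 of 3 reached 2-fold in neutrophils. Of the other IL-6 family receptors 0 were higher after LPS in any of the 3 comparisons. Among other receptors that act through STAT3, Csf3r, the receptor for granulocyte colony-stimulating factor and itself 1 of the 12 neutrophil markers, was at 464 in naive neutrophils, 237 after LPS, 66.1 in naive monocytes, 43.5 in Ym1+ and 30.2 in Ym1- cells. Il10ra, an IL-10 receptor chain, was at 60.15 in naive monocytes, 29.9 in Ym1+, 29.1 in Ym1-, 10.1 in neutrophils after LPS and 4.75 in naive neutrophils. Like Il6ra, both Csf3r and Il10ra were lower in Ym1- than in naive monocytes.

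The kinases and transcription factors below the receptors mostly stayed under 2-fold after LPS. Of the 4 Janus kinases only Jak3 reached 2-fold after LPS. Jak1, which binds gp130, was at an FPKM of 52.0 to 59.2 in monocytes, 86.9 in neutrophils after LPS and 109 in naive neutrophils. Tyk2 was at 41.8 to 48.6 in monocytes and 8.56 to 14.1 in neutrophils. Of the 6 other STAT genes none was higher after LPS, and Stat4 alone was lower, in neutrophils, at 12.2 against 28.4. Of 13 other SOCS family and STAT inhibitor genes that could be compared, 0 reached 2-fold in either monocyte comparison and 1 did in neutrophils, namely Cish, at 13.1 against 5.12. The relative Socs6 was at 24.99 in naive monocytes, 16.4 in Ym1- and 14.7 in Ym1+ cells.

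**Figure D5:**
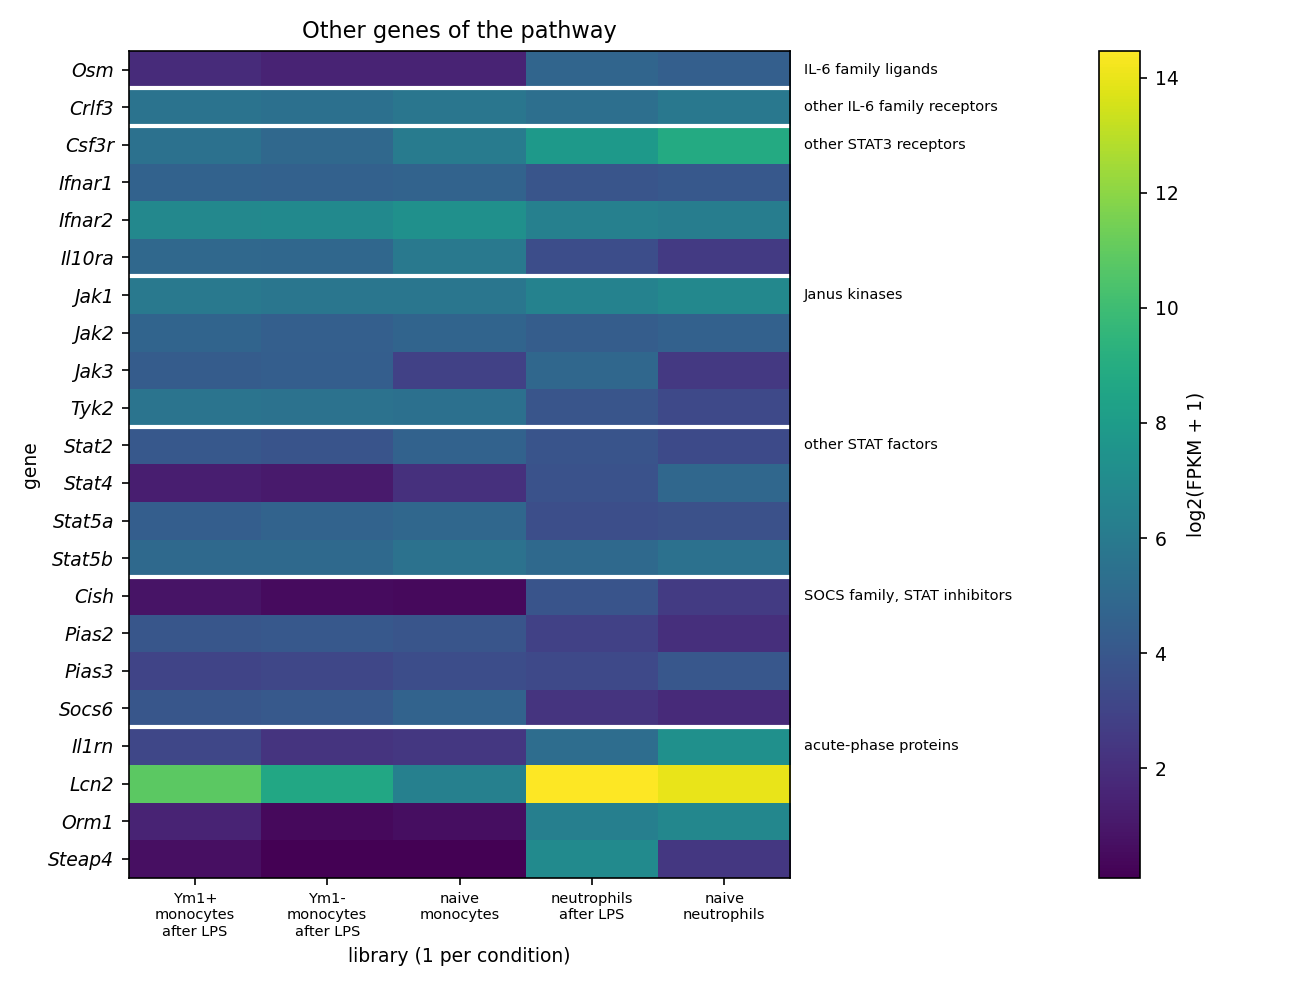
log2(FPKM + 1) of 22 other genes of the pathway in the 5 libraries, grouped by role. Jak3 is brighter in the LPS libraries than in the naive ones, and Lcn2 runs from 81.1 FPKM in naive monocytes to 22622 in neutrophils after LPS.

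Target genes and partners were read in the same way. Of the other Pim kinase and STAT3 target genes 1 was higher and 1 lower of 19 in Ym1- monocytes, 1 and 3 of 18 in Ym1+ monocytes, and 2 and 1 of 15 in neutrophils. Il4ra, the IL-4 receptor alpha chain, was at an FPKM of 138 in neutrophils after LPS against 25.6 in naive neutrophils, and at 34.4 in Ym1+, 28.8 in Ym1- and 15.2 in naive monocytes. Cebpb, a partner of STAT3 at acute-phase promoters, was at 124 against 39.9 in neutrophils and at 191 to 226 in monocytes. Myc was at 18.6 in naive monocytes, 13.8 in Ym1- and 7.22 in Ym1+ cells. Among 7 NF-κB genes that Bcl3 works with, 0 reached 2-fold in Ym1- monocytes or neutrophils, and Nfkbia, an NF-κB inhibitor, was higher in Ym1+ cells at 78.2 against 37.4 in naive monocytes. Of the gp130 adaptor and receptor-shedding genes, 1 of 7 was lower in Ym1- monocytes, 0 reached 2-fold in Ym1+ monocytes and 1 was higher in neutrophils.

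The receptors through which the secreted products of Saa3 and Lrg1 can act were measured in the same libraries. Of the serum amyloid A receptor genes 0 were higher and 2 lower of 7 in Ym1- monocytes, 1 and 0 of 7 in Ym1+ monocytes, and 1 and 0 of 6 in neutrophils. Fpr2, a formyl peptide receptor that binds serum amyloid A, was at an FPKM of 656 in neutrophils after LPS, 578 in naive neutrophils, 82.9 in Ym1+, 36.8 in Ym1- and 18.2 in naive monocytes. The part of neutrophil RNA in its monocyte levels was not tested. Scarb1, a scavenger receptor, was at 101 to 109 in monocytes, 29.9 in neutrophils after LPS and 6.26 in naive neutrophils. In the TGF-beta list 0 genes were higher and 1 lower of 11 in Ym1- monocytes, 0 and 3 of 11 in Ym1+ monocytes, and 1 and 0 of 10 in neutrophils. Acvrl1, which encodes the receptor ALK1, was at 133 in neutrophils after LPS, 67.3 in naive neutrophils and 2.62 to 7.25 in monocytes. Eng, the co-receptor endoglin to which LRG1 binds, was at 10.7 in Ym1-, 9.10 in naive and 2.97 in Ym1+ monocytes and below 0.1 in neutrophils. Over all 12 lists, 8 genes were higher and 8 lower of 98 in Ym1- monocytes, 10 and 7 of 96 in Ym1+ monocytes, 12 and 3 of 90 in neutrophils, and 4 and 2 of 94 between Ym1+ and Ym1- cells. That is 8.16 and 8.16%, 10.4 and 7.29%, 13.3 and 3.33%, and 4.26 and 2.13%. For these and for each list above, the shares over all genes were 2.86 and 4.72%, 2.59 and 4.51%, 8.96 and 5.35%, and 1.38 and 1.18%. The lists were chosen with earlier results known, so nothing is read from these counts.

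Genes with the most similar profile were found as the root mean square difference of centred log2(FPKM + 1) over the 5 libraries, among 7172 genes and only for genes that span at least 2 on that scale. For Lrg1 they were Lcn2 at 0.58, 1100001G20Rik at 0.73 and Stfa2l1 at 0.81, of which Stfa2l1 is among the neutrophil markers. For Socs3 the nearest was Zfp36l1 at 0.29, an RNA-binding protein gene, with an FPKM of 34.0 in neutrophils after LPS, 21.0 in Ym1+, 12.6 in Ym1-, 7.59 in naive neutrophils and 1.04 in naive monocytes. For Saa3 no gene came close, as Snora70, F11r and Cfb were at 1.48, 1.59 and 1.70. For Il6ra the nearest were Iqgap2 at 0.12, Madd at 0.15 and Lipa at 0.15, and for Il6st Gm15987 at 0.23, Parp1 at 0.24 and Fbl at 0.25. For Pim1 they were Ldha at 0.28, Myd88 at 0.34 and Slc16a6 at 0.36, and Stat3 and Bcl3 span less than 2.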

How the data were processed

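The authors deposited FPKM values for 23234 gene symbols in each of the 5 libraries, 1 per condition, made with a strand-specific kit. Per the submitters' processing notes, the tools were TopHat2 2.0.8 and Cufflinks 2.1.1 and the build was mm9. No gene annotation is named. Groups were taken from the sample labels.

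Differences of log2(FPKM + 1) were computed with Python 3.11.15, numpy 2.4.6, pandas 2.3.3 and scipy 1.17.1 for 5 library pairs. Genes entered a pair if one of its libraries reached an FPKM of 1, and were called at a 2-fold difference. No p-value can be had from single libraries. Relative depth was read from the steps between low FPKM values, and fragments from GENCODE M21 transcript lengths, which gave 95% Poisson intervals for levels and exact binomial intervals for ratios. In each pathway list, up to 4 genes that reached an FPKM of 10 could be named, those with the largest absolute difference in any pair. Values are given in the text for only some of these. The 3 nearest profiles were sought for those of the 8 genes with a wide range. The 8 genes and all lists were chosen with earlier results of these data known. The 2-fold call was tested on a simulated pair of libraries, with 4-fold changes in genes at an FPKM of at least 10. The other steps, and calls for genes at lower levels, were not tested in this way. Alternatives were a pseudocount of 0.1, an FPKM minimum of 5, median-of-ratios scaling, TPM and a 4-fold threshold. Promoter sequences are from RefSeq, GRCm38.p6.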

Additional observations from a re-analysis of the deposited data

Results flagged for a closer look

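Changes after LPS that ran in opposite directions in neutrophils and monocytes were found for both IL-6 receptor chains. For Il6ra the change in neutrophils minus that in Ym1- monocytes was 1.49 on the log2 scale, and for Il6st it was 1.44. Il6ra changed by 0.46 in neutrophils, under 2-fold, and by -1.02 in Ym1- monocytes. Il6st changed by -0.33 in Ym1- monocytes, under 2-fold, and by 1.11 in neutrophils. That neutrophil change lies near the floor, at about 33 fragments after LPS and 4 in naive cells. The part of monocyte RNA in it was not tested. Each difference between the cell types rests on 4 libraries without replicates and was not tested.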

How the results depend on the processing

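Every value compares single libraries, so the spread between mice is unknown. No paired analysis was possible because each condition has 1 library. Of 39 differences of the 8 genes, 37 kept their sign and 37 their side of 2-fold with a pseudocount of 0.1, median-of-ratios scaling and TPM. The exceptions were Pim1 between Ym1+ and Ym1- monocytes (-0.03 to 0.02) and, in naive neutrophils against naive monocytes, Bcl3 (-0.59 to 0.49), Stat3 (0.13 to 1.22) and Pim1 (0.68 to 1.75). At 4-fold the number of the 8 genes past the threshold was 3 in Ym1- against naive monocytes, 2 in neutrophils and 1 in Ym1+ against Ym1- monocytes, where 5, 6 and 2 passed 2-fold. Over all genes, 4-fold left 36 higher and 64 lower in Ym1- against naive monocytes (306 and 506 at 2-fold), 78 and 76 in Ym1+ against naive monocytes (277 and 483), 158 and 82 in neutrophils (859 and 513), 40 and 19 in Ym1+ against Ym1- monocytes (145 and 124) and 480 and 1783 in the naive cells (1184 and 4678). A pseudocount of 0.1 gave 487 and 808 in Ym1- against naive monocytes, 264 and 297 in Ym1+ against Ym1- monocytes, 820 lower in Ym1+ against naive monocytes and 860 lower in neutrophils. An FPKM minimum of 5 gave 96 and 71 in Ym1+ against Ym1- monocytes.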
